A study of Mus musculus with 9 samples.

Results

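The postsynaptic density scaffold and calmodulin genes are 34 genes picked by name from the 54532 genes of a cortex expression table, and all 34 were found in it. They were compared in the cortex of 9 adult male mice, 3 each of the inbred strains B6 (C57BL6/J), C3H (C3H/HeJ) and WSB (WSB/EiJ), aged 8 to 12 weeks and bred locally from purchased stock. No mouse carried an engineered allele and none was given a treatment, so the strain is the one factor that differs by design. The reference genome of the mouse was read from B6, while C3H belongs to the classical laboratory strains as B6 does and WSB descends from wild-caught mice. The strains were sequenced as sources of candidate genes for differences in stroke damage, and the question here is whether the transcripts of the postsynaptic machinery differ between them. Each library was made from a whole piece of cortex, so that fewer cells of a type and less RNA per cell cannot be told apart.

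The postsynaptic density is a protein-rich plate under the membrane of excitatory synapses, most of them on dendritic spines. PSD-95 and its relatives hold glutamate receptors at the surface and bind SAPAP proteins, which in turn bind Shank and Homer proteins further inside the plate and so reach the actin skeleton of the spine. Calcium entering through NMDA receptors binds calmodulin, which switches on the kinase CaMKII and the phosphatase calcineurin, enzymes with opposite effects on synaptic strength. In cortex many of these genes are expressed strongly by excitatory projection neurons, and expression by cell type was not measured here.

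Calm2 and Calm3 are separate genes on separate chromosomes that encode the same calmodulin protein. The 149 codons before the stop codon of Calm3 encode 0 residues unlike those of Calm2, so that within the coding sequence the genes differ at silent bases alone. Exon 3, which is coding throughout, is printed to show how far reads on it tell the genes apart, from the mouse genome GRCm38 with the GENCODE M21 annotation, in the direction of each gene and with capitals for the bases unlike Calm2. Calm2 lies at chr17:87435791-87435934 and Calm3 at chr7:16917585-16917728, each on the minus strand.
Calm2: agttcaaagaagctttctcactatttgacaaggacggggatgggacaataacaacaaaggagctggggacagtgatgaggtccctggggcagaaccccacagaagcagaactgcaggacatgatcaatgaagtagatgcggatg
Calm3: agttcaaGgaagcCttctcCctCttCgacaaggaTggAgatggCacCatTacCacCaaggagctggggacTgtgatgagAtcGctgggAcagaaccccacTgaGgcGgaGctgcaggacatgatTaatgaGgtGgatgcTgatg
Of these 144 bases, 24 differ between Calm2 and Calm3, and over the whole coding sequence of 447 bases the genes are 82.6% identical. Processed pseudogenes were closer to Calm2 and Calm3 than these are to each other. Transcripts at least 95% identical over at least 150 bases were found for Calm2 in 2 pseudogenes, listed at up to 0.945 FPKM, and for Calm3 in Gm5881, listed at up to 3.77 FPKM. Against Calm2 and Calm3 levels that ran from 714 to 1447 FPKM over the mice these are small, and how a read that matched both was counted is not given in the sources used here. Stretches of Dlg1 and Dlg4 transcripts also matched other genes at this identity, over at most 200 bases.

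Reads on genes numbered 17651630 to 21562429 per B6 mouse, 19042306 to 19433751 per C3H mouse and 16317439 to 17784118 per WSB mouse. All 6 excitatory neuron markers were above 0 in every mouse, and their summed level ran from 372 to 484 FPKM in the B6 mice, from 448 to 556 in the C3H mice and from 373 to 451 in the WSB mice. Some markers of other cells moved with the strain. The summed level of 5 blood markers was 217 to 254 FPKM in the B6 mice, 632 to 1010 in the C3H mice and 249 to 329 in the WSB mice, and that of 6 oligodendrocyte markers was 784 to 982, 734 to 989 and 427 to 617. Taking the strains in the same order, inhibitory neuron markers (6 genes) summed to 582 to 605, 579 to 670 and 623 to 759 FPKM, and hippocampus markers (7 genes) to 45.1 to 73.1, 77.7 to 92.3 and 84.1 to 127. Astrocyte markers (5 genes) were at 172 to 207, 189 to 220 and 171 to 180 FPKM, and microglia markers (5 genes) at 76.9 to 87.5, 77.4 to 92.2 and 72.0 to 75.6. Endothelium markers (5 genes) overlapped between all strains. Striatum markers (7 genes) varied within each strain, by 107 to 445 FPKM across B6, 102 to 271 across C3H and 78.8 to 216 across WSB. Choroid plexus markers (5 genes) were at 64.5, 757 and 63.9 FPKM in B6 replicates 1 to 3, at 90, 445 and 650 in C3H and at 533, 464 and 599 in WSB. None of these markers was at 0 in any mouse. C3H replicate 2 stood apart from the other two C3H libraries in how its values followed GC content, described with its effects further down. Values are FPKM, that is fragments per kilobase of a gene after scaling of each library, and so may be compared between genes. That scaling matched size factors from the median ratio of reads over genes, rather than the total reads of a library. Strains were compared by limma on log2(FPKM + 0.1) over all genes that averaged 0.1 FPKM or more, a fold change is the first strain minus the second on that scale, and a gene was called when its p, adjusted by the Benjamini-Hochberg method over all genes tested, was under 0.05.

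All 34 members passed the filter in each comparison, and their mean levels over the 9 mice spanned a range from 3.81 FPKM for Homer2 to 1541 FPKM for Nrgn. Nrgn, Calm2 and Calm3 were the 3 highest, followed by Ddn and Camk2a at 385 and 364 FPKM. The lowest were Homer2, Nlgn1 at 4.01 and Lrrc7 at 4.14 FPKM. Even the lowest count behind a member, 514 reads for Dlgap2 in one mouse, leaves little counting error, and counting error is the only error that reads describe. Levels differed far more between members than between strains, as the plot of every member in every mouse shows.

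**Figure D1:**
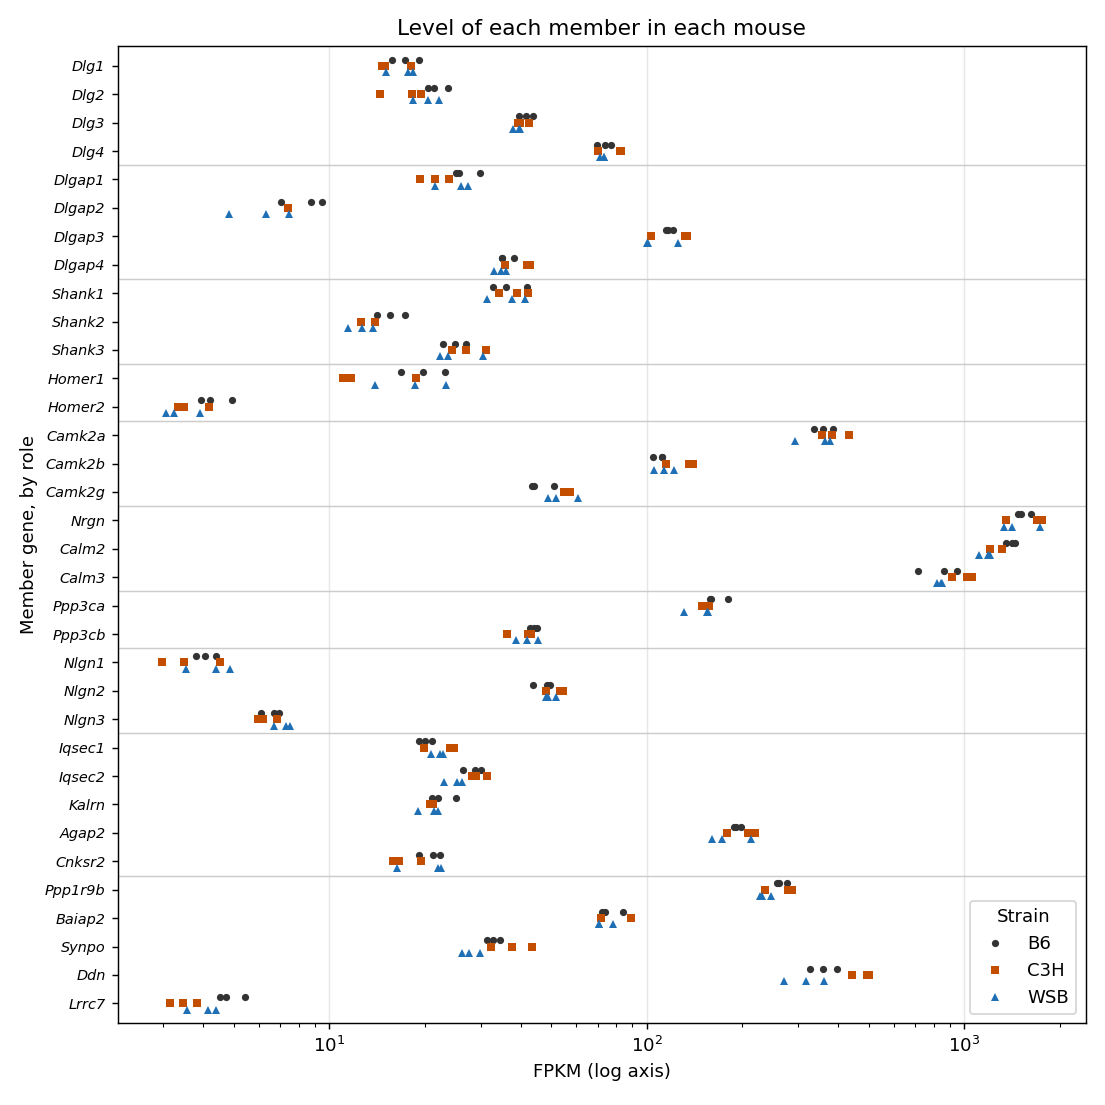
Level in FPKM (log axis) of each of the 34 members, grouped by role, with 1 point per mouse and a colour and shape per strain (3 mice each). Members range from a mean of 3.81 FPKM (Homer2) to 1541 FPKM (Nrgn), and for most of them the points of the 3 strains overlap.

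Few members differed between strains by more than the spread between mice allowed. Between WSB and B6, 0 of 34 members were called by limma, where 2.81% of all 20746 genes tested were called higher and 3.09% lower in WSB. In C3H against B6, 0 of 34 were called, where 2.38% of 20602 genes were called higher and 2.26% lower in C3H. Between WSB and C3H, 1 of 34 was called, Ddn, lower in WSB, where 2.61% of 20607 genes were called higher and 3.13% lower. An unadjusted p under 0.05 was reached by 7 members between WSB and B6 (20.4% of all genes tested), by 8 between C3H and B6 (24.1%) and by 5 between WSB and C3H (23.8%). The counts of both comparisons with B6 are close to the background share and that of WSB against C3H is below it. With voom weights on reads recovered from the FPKM values, limma called 1, 2 and 2 members in these comparisons, where 7.43%, 7.22% and 8.53% of all genes were called. Under that setting they were Calm2 between WSB and B6, Ddn and Lrrc7 between C3H and B6, and Ddn and Synpo between WSB and C3H.

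The 3 values of one strain lay wholly on one side of the other strain's in 8 members between WSB and B6, each lower in WSB, against 13.1% of all genes lower and 13.0% higher. That count is above the background share, and since the members were not chosen blind to these data, the excess was not tested. The summed markers of inhibitory neurons and hippocampus (higher in WSB) and of oligodendrocytes and microglia (lower in WSB) also separated the B6 from the WSB mice, and their part in these 8 members was not tested. In C3H against B6 the values did not overlap for 3 members higher in C3H (14.9% of all genes) and 6 lower (14.0%). The summed markers of blood and hippocampus, both higher in C3H, also separated the B6 from the C3H mice, and their part in these members was not tested. Between WSB and C3H the values did not overlap for 0 members higher in WSB (14.2%) and 5 lower (14.4%). The fold change was below 0 for 26 of the 34 members between WSB and B6, for 16 between C3H and B6 and for 25 between WSB and C3H. The median over members was -0.08, 0.03 and -0.10 in the 3 comparisons, where the median over all genes tested was 0.002, -0.004 and 0.009. With the GC trend described further down removed, the member medians were -0.097, -0.059 and -0.032, and without WSB replicate 2 the median between WSB and B6 was -0.027. The 3 comparisons share mice, so that a high or low strain enters 2 of them.

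The intervals show how large a difference could have been missed. The 95% interval of the fold change lay within 0.5 of 0 on either side (1.41-fold) for 29 of 34 members between WSB and B6, for 25 between C3H and B6 and for 26 between WSB and C3H. It lay within 1 of 0 (2-fold) for 34, 33 and 33 members, and Homer1 was the exception in both comparisons with C3H. Of all genes tested, 37.6%, 31.6% and 32.6% had an interval within 0.5 of 0. The plot of fold changes shows each interval.

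**Figure D2:**
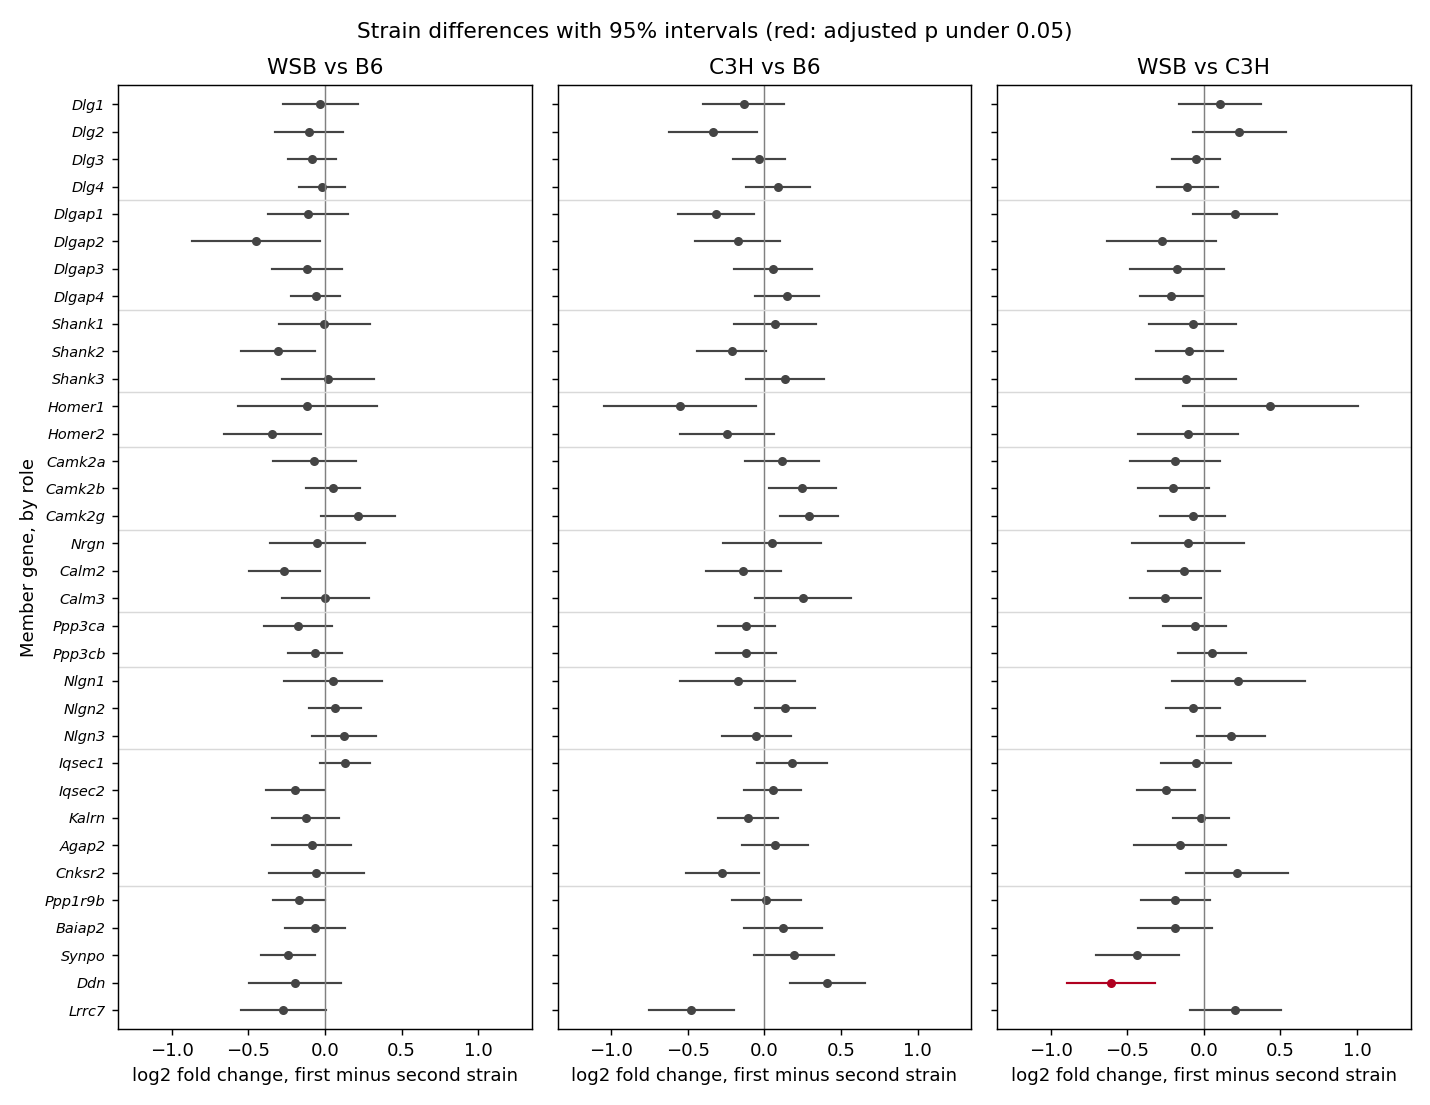
Log2 fold change (x axis, first strain minus second) of each of the 34 members in the 3 comparisons, grouped by role, as points with 95% intervals from limma; red marks an adjusted p under 0.05. Only Ddn between WSB and C3H is red, at -0.60, and the widest interval is that of Homer1 between WSB and C3H, from -0.14 to 1.01.

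The PSD-95 family (Dlg1 to Dlg4) tethers glutamate receptors and other membrane proteins through PDZ domains. Dlg4, which encodes PSD-95 itself on chromosome 11, was the highest of the 4, and its level was 73.9, 69.7 and 77.1 FPKM in B6 replicates 1 to 3, 82.5, 69.9 and 82.8 in C3H and 71.3, 73.1 and 73.4 in WSB. The WSB values lay inside the B6 range. The fold change of Dlg4 was -0.02 (SE 0.06, adjusted p = 0.914) between WSB and B6, 0.09 (SE 0.09, adjusted p = 0.571) between C3H and B6 and -0.11 (SE 0.08, adjusted p = 0.480) between WSB and C3H, by limma. The interval between WSB and B6 ran from -0.17 to 0.13, the narrowest of any member in that comparison. The next member of the family, Dlg3 (SAP102), was at 37.8 to 43.7 FPKM over the 9 mice, and its fold changes lay between -0.085 and -0.034. Dlg2, encoding PSD-93, had 23.7, 20.4 and 21.4 FPKM in B6 and 18.2, 19.4 and 14.4 in C3H, with every C3H value below every B6 value (-0.34, SE 0.12, adjusted p = 0.161). Dlg1, encoding SAP97, was at 14.6 to 19.2 FPKM, with a smallest adjusted p of 0.490.

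SAPAP proteins (Dlgap1 to Dlgap4) bridge PSD-95 to Shank. Dlgap3, the highest of the 4 and a gene known for its strong expression in striatum, was at 115, 116 and 121 FPKM in B6, 132, 103 and 133 in C3H and 101, 100.2 and 125 in WSB. The C3H and WSB mice were each spread more widely than the B6 mice, and the strains overlapped. Its fold changes were -0.12 (SE 0.10, adjusted p = 0.565), 0.05 (SE 0.11, adjusted p = 0.794) and -0.17 (SE 0.13, adjusted p = 0.466) for WSB against B6, C3H against B6 and WSB against C3H. Dlgap1 was at 25.0, 25.7 and 29.8 FPKM in B6, 21.5, 23.8 and 19.3 in C3H and 27.3, 21.5 and 25.9 in WSB, so that the highest C3H mouse, replicate 2, lay just below the lowest B6 mouse. The fold change of Dlgap1 between C3H and B6 was -0.32 (SE 0.11, adjusted p = 0.135, limma), and its other two were -0.11 (SE 0.11, adjusted p = 0.642) for WSB against B6 and 0.21 (SE 0.12, adjusted p = 0.324) for WSB against C3H. Dlgap2 had the largest difference between WSB and B6 of any member, a fold change of -0.45 (SE 0.18, adjusted p = 0.213), with 9.51, 7.06 and 8.77 FPKM in B6 and 6.33, 4.83 and 7.47 in WSB. Its lowest B6 mouse was below its highest WSB mouse, while the 3 C3H mice were nearly equal, at 7.39, 7.44 and 7.43 FPKM. Dlgap4, at 33.0 to 42.8 FPKM, had a fold change of -0.21 (SE 0.09, adjusted p = 0.199) between WSB and C3H, which was -0.29 (adjusted p = 0.0499) without C3H replicate 2 and -0.09 (adjusted p = 0.436) with the GC trend removed.

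Shank proteins are the inner layer of the scaffold. Shank1 was the highest of the 3, at 32.7, 35.9 and 41.8 FPKM in B6, 42.2, 34.3 and 39.0 in C3H and 37.6, 41.2 and 31.3 in WSB, and the strains overlapped. Its fold changes were 0.00 (SE 0.13, adjusted p = 0.990) for WSB against B6, 0.07 (SE 0.12, adjusted p = 0.750) for C3H against B6 and -0.07 (SE 0.12, adjusted p = 0.752) for WSB against C3H, and the first interval reached from -0.30 to 0.29. Shank3, mutated in a human neurodevelopmental syndrome, was at 22.3 to 31.1 FPKM with fold changes between -0.115 and 0.134. Shank2 had 15.5, 14.1 and 17.3 FPKM in B6, 13.9, 13.9 and 12.6 in C3H and 13.7, 12.7 and 11.5 in WSB. Here both other strains lay wholly below B6, with fold changes of -0.30 (SE 0.10, adjusted p = 0.150) for WSB and -0.21 (SE 0.10, adjusted p = 0.228) for C3H, neither of which passed the test, and with the GC trend removed the second was -0.35 (adjusted p = 0.105).

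Homer proteins link Shank to metabotropic glutamate receptors and to calcium stores. Homer1 was the member with the widest spread between mice, at 23.2, 16.8 and 19.8 FPKM in B6, 11.7, 18.8 and 11.1 in C3H and 18.6, 14.0 and 23.3 in WSB. The C3H mice of replicates 1 and 3 were lower than every other mouse and replicate 2 lay among the B6 and WSB values. The fold change of Homer1 between C3H and B6 was -0.55 (SE 0.21, adjusted p = 0.174), the largest of any member in that comparison, and without C3H replicate 2 it was -0.79 (adjusted p = 0.0245, limma). After removal of the GC trend it was -0.13 (adjusted p = 0.579). Between WSB and C3H it was 0.435 (SE 0.245, adjusted p = 0.322), and between WSB and B6 -0.115 (SE 0.19, adjusted p = 0.801). Homer1 also has a short form induced by neuronal activity, and the table gives 1 value per gene, so that the forms were not separated. Homer2 was at 4.20, 3.93 and 4.93 FPKM in B6 and 3.92, 3.25 and 3.06 in WSB, with every WSB mouse just below every B6 mouse, and a fold change of -0.34 (SE 0.135, adjusted p = 0.209).

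CaMKII is the most abundant kinase of the postsynaptic density and is built from alpha, beta, gamma and delta subunits. Camk2a, which encodes the alpha subunit of forebrain excitatory neurons on chromosome 18, was the highest of the 3 subunit genes among the members, at 358, 335 and 384 FPKM in B6, 433, 357 and 381 in C3H and 376, 292 and 363 in WSB. The strains overlapped, and the lowest value was that of WSB replicate 2. Its fold changes were -0.07 (SE 0.12, adjusted p = 0.799), 0.12 (SE 0.10, adjusted p = 0.508) and -0.19 (SE 0.125, adjusted p = 0.403) for WSB against B6, C3H against B6 and WSB against C3H. Camk2g, the gamma subunit that carries calmodulin to the nucleus, had 43.4, 44.2 and 50.8 FPKM in B6, 57.2, 54.7 and 56.9 in C3H and 51.8, 48.8 and 60.7 in WSB. The 3 C3H mice were close together and all above the 3 B6 mice, and the WSB mice overlapped both. The fold change of Camk2g between C3H and B6 was 0.29 (SE 0.08, adjusted p = 0.0942, limma), which did not pass, and it was 0.22 (SE 0.10, adjusted p = 0.294) between WSB and B6 and -0.07 (SE 0.09, adjusted p = 0.665) between WSB and C3H. Camk2b, the actin-binding beta subunit, was at 105, 112 and 112 FPKM in B6 and 140.2, 115 and 136 in C3H, again without overlap (0.25, SE 0.09, adjusted p = 0.166), and without C3H replicate 2 its fold change was 0.34 with an adjusted p of 0.0368, while with the GC trend removed it was 0.12 (adjusted p = 0.252).

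Calm2 and Calm3 encode calmodulin, the calcium sensor, and Nrgn encodes neurogranin, which binds calmodulin while calcium is low. Nrgn, on chromosome 9, was the highest member, at 1511, 1471 and 1619 FPKM in B6, 1749, 1352 and 1695 in C3H and 1409, 1330 and 1735 in WSB. B6 mice lay inside the range of both other strains. The fold changes of Nrgn were -0.05 (SE 0.13, adjusted p = 0.887), 0.05 (SE 0.14, adjusted p = 0.846) and -0.10 (SE 0.16, adjusted p = 0.732) for WSB against B6, C3H against B6 and WSB against C3H, by limma, and the first interval ran from -0.36 to 0.26. Calm2, on chromosome 17, was at 1447, 1353 and 1415 FPKM in B6, 1310, 1317 and 1207 in C3H and 1204, 1115 and 1187 in WSB. The strains did not overlap, with B6 highest, then C3H, then WSB, although the difference of neighbours in that order did not pass the test. With the GC trend removed the fold change of Calm2 between C3H and B6 turned from -0.14 to 0.05. Its fold change between WSB and B6 was -0.27 (SE 0.10, adjusted p = 0.188 by limma with a trend and 0.0318 with voom weights). Calm3, on chromosome 7, did not follow that order, at 714, 865 and 945 FPKM in B6, 1059, 914 and 1019 in C3H and 818, 848 and 845 in WSB. Its fold change was 0.00 (SE 0.12) between WSB and B6, and -0.25 (SE 0.10, adjusted p = 0.184) between WSB and C3H, where the 3 WSB values lay wholly below the C3H values.

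Calcineurin is the calcium- and calmodulin-dependent phosphatase that opposes CaMKII. Ppp3ca, its main catalytic subunit in brain, was at 181, 159 and 159.6 FPKM in B6, 153, 157 and 149.5 in C3H and 155, 131 and 156 in WSB. The B6 mice were the highest, by a small margin and without overlap with either strain. The fold changes of Ppp3ca were -0.18 (SE 0.095, adjusted p = 0.353), -0.12 (SE 0.08, adjusted p = 0.398) and -0.06 (SE 0.09, adjusted p = 0.711) for WSB against B6, C3H against B6 and WSB against C3H. Ppp3cb, at 36.4 to 45.5 FPKM over the 9 mice, had fold changes between -0.12 and 0.05.

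Neuroligins are adhesion proteins that bind presynaptic neurexins, Nlgn1 mainly at excitatory synapses and Nlgn2 at inhibitory ones. Nlgn2 was the highest, at 43.7, 48.5 and 49.6 FPKM in B6, 54.6, 48.0 and 53.2 in C3H and 48.0, 51.6 and 48.7 in WSB, and the strains overlapped. Its fold changes were 0.07 (SE 0.07, adjusted p = 0.673), 0.14 (SE 0.08, adjusted p = 0.355) and -0.07 (SE 0.08, adjusted p = 0.611) for WSB against B6, C3H against B6 and WSB against C3H. Nlgn1 was at 2.98 to 4.88 FPKM and Nlgn3, an X-linked gene, at 5.98 to 7.52 FPKM, and their fold changes ran from -0.17 to 0.23.

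The next 5 members regulate small GTPases or adapt such regulators to the scaffold. Agap2, an Arf GTPase-activating protein known as PIKE on chromosome 10, was the highest, at 188, 190.2 and 197 FPKM in B6, 219, 179 and 208 in C3H and 172, 161 and 213 in WSB. The B6 mice lay inside the range of both other strains, and the fold changes were -0.09 (SE 0.11, adjusted p = 0.725), 0.07 (SE 0.09, adjusted p = 0.678) and -0.16 (SE 0.13, adjusted p = 0.496) for WSB against B6, C3H against B6 and WSB against C3H. Iqsec2, an X-linked Arf exchange factor that binds PSD-95 and calmodulin, had 28.7, 26.4 and 30.0 FPKM in B6, 31.3, 28.1 and 28.9 in C3H and 25.3, 22.9 and 26.2 in WSB. The highest WSB mouse was just below the lowest B6 mouse and below every C3H mouse. Iqsec2 had a fold change of -0.25 (SE 0.08, adjusted p = 0.126) between WSB and C3H, -0.19 (SE 0.08, adjusted p = 0.237) between WSB and B6 and 0.055 (SE 0.08, adjusted p = 0.709) between C3H and B6. Its paralogue Iqsec1, at 19.1 to 24.7 FPKM, had fold changes of 0.13 (SE 0.07), 0.18 (SE 0.10) and -0.05 (SE 0.10). Kalrn, encoding the exchange factor kalirin, was at 19.1 to 25.1 FPKM with fold changes between -0.13 and -0.02. Cnksr2, an X-linked scaffold of Ras signalling, was at 22.3, 19.1 and 21.3 FPKM in B6 and 16.6, 19.5 and 15.8 in C3H. C3H replicate 2 overlapped B6, and the fold change was -0.27 (SE 0.10, adjusted p = 0.167).

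The 5 remaining members are tied to actin or bind the scaffold, and they held the one called difference. Ddn, on chromosome 15, encodes dendrin, a proline-rich protein whose mRNA is found in dendrites, and its level was 326, 359.7 and 396 FPKM in B6, 501, 441 and 494 in C3H and 363, 317 and 270.1 in WSB. Every C3H mouse was above every B6 and WSB mouse, and B6 and WSB overlapped. Ddn was lower in WSB than in C3H, with a fold change of -0.60 (SE 0.12, 95% interval -0.89 to -0.32, adjusted p = 0.0337 by limma), which is 0.658 times the C3H level. Between C3H and B6 its fold change was 0.41 (SE 0.10, adjusted p = 0.0745), and between WSB and B6 -0.19 (SE 0.13, adjusted p = 0.464). The call between WSB and C3H was lost without C3H replicate 1 (-0.57, adjusted p = 0.132), C3H replicate 3 (-0.58, adjusted p = 0.130), WSB replicate 2 (-0.61, adjusted p = 0.092) or WSB replicate 3 (-0.50, adjusted p = 0.080), and with the GC trend removed (-0.48, adjusted p = 0.0777). It was also lost with no filter on low values (adjusted p = 0.0746), with eBayes without a trend (0.088), with a replicate block (0.0741) and with the block and the GC trend removed (0.1004), so that it held in 9 of the 18 other fits. Among the 6 fits that leave out 1 mouse, the call held in 2. Blood and oligodendrocyte markers also separated C3H from WSB, with summed levels of 632 to 1010 against 249 to 329 FPKM and 734 to 989 against 427 to 617 FPKM. So did astrocyte markers (189 to 220 against 171 to 180 FPKM) and microglia markers (77.4 to 92.2 against 72.0 to 75.6 FPKM), and the excitatory neuron markers stood at 448 to 556 against 373 to 451 FPKM. Their part in the difference in Ddn was not tested. An antisense gene that overlaps Ddn, B130046B21Rik, was listed at up to 1.11 FPKM, small beside the level of Ddn.

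Synpo and Lrrc7 came next after Ddn by adjusted p. Synpo encodes synaptopodin, a protein of the spine apparatus and a known binding partner of dendrin. It was at 31.4, 32.7 and 34.4 FPKM in B6, 43.5, 32.3 and 37.6 in C3H and 29.8, 26.1 and 27.5 in WSB, the WSB mice being below all mice of both other strains. Synpo had a fold change of -0.43 (SE 0.12, adjusted p = 0.0798) between WSB and C3H, -0.24 (SE 0.075, adjusted p = 0.122) between WSB and B6 and 0.19 (SE 0.11, adjusted p = 0.330) between C3H and B6. The first of these passed with voom weights (adjusted p = 0.0312), with all 9 mice in one fit (0.0364) and without C3H replicate 2 (-0.54, adjusted p = 0.0266), and with the GC trend removed it was -0.32 (adjusted p = 0.112). Lrrc7 encodes densin-180, a leucine-rich repeat protein that binds CaMKII and alpha-actinin, and its level was 5.42, 4.74 and 4.52 FPKM in B6, 3.47, 3.83 and 3.16 in C3H and 4.41, 3.55 and 4.16 in WSB. Both other strains lay wholly below B6. Lrrc7 had a fold change of -0.48 (SE 0.12, adjusted p = 0.0706) between C3H and B6, -0.27 (SE 0.12, adjusted p = 0.260) between WSB and B6 and 0.21 (SE 0.13, adjusted p = 0.364) between WSB and C3H. The difference between C3H and B6 passed in 3 of the 18 other fits, namely voom weights (adjusted p = 0.0257), all 9 mice in one fit (0.0475) and without C3H replicate 2 (0.0404). Ppp1r9b, encoding spinophilin, was at 256, 261 and 275 FPKM in B6 and 231, 227 and 246 in WSB, without overlap (-0.17, SE 0.07, adjusted p = 0.241), and Baiap2, encoding IRSp53, was at 70.5 to 89.4 FPKM with fold changes between -0.19 and 0.12.

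**Figure D3:**
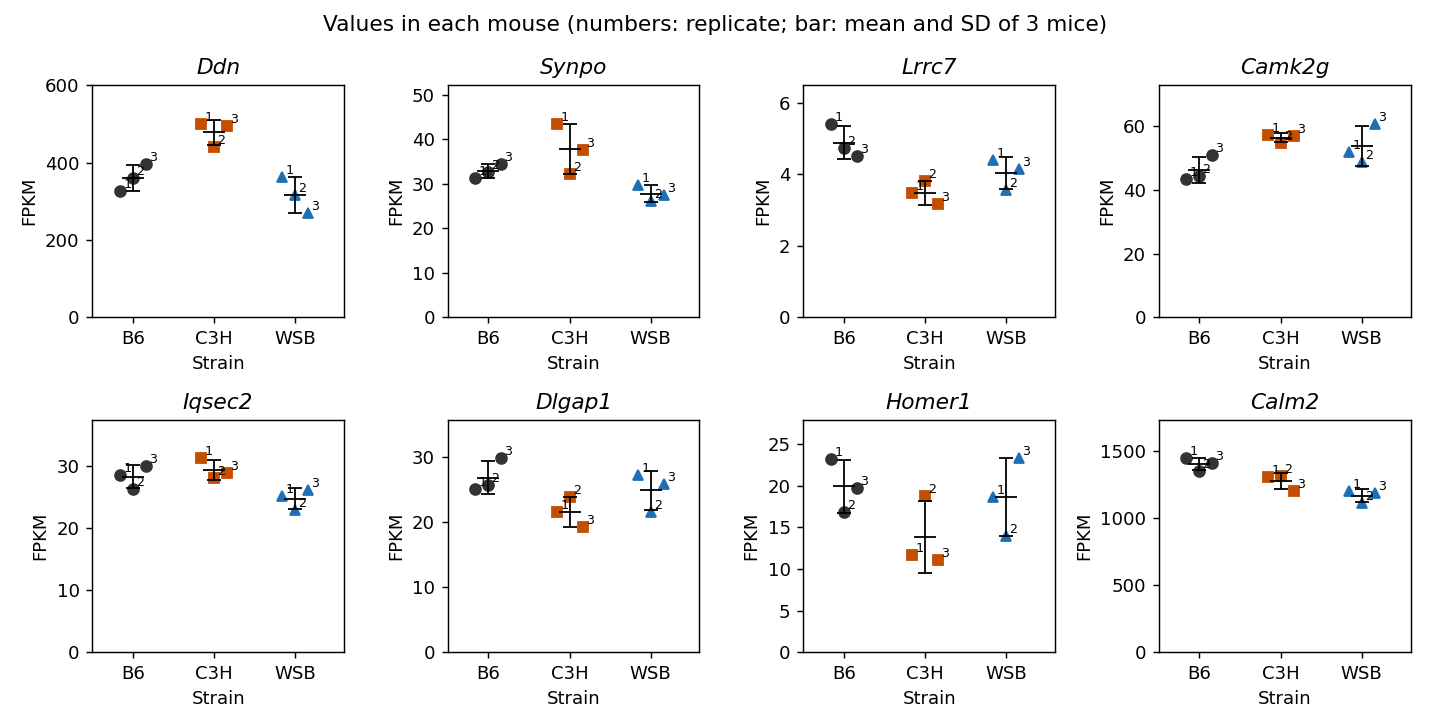
FPKM (y axis from 0) in each mouse of the 3 strains for 8 members, with the replicate number beside each point and bars for the mean and SD of 3 mice. All 3 C3H mice are above the rest for Ddn, the WSB mice are lowest for Synpo and Iqsec2, and C3H replicate 2 is the high C3H mouse for Homer1 and the low one for Synpo.

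The other genes of the same machinery, 62 genes on a list of further scaffolds, calmodulin kinases, phosphatases and their anchors, GTPase regulators, actin-linked proteins and adhesion partners, were called at about the share of all genes or below it. None of the 62 was called between WSB and B6 or between C3H and B6 by limma (0 and 0, with 9 and 18 at an unadjusted p under 0.05), and 2 of 62 were called between WSB and C3H, both lower in WSB (20 at an unadjusted p under 0.05), where 3.13% of all genes were called lower. Of all genes tested, 20.4%, 24.1% and 23.8% had an unadjusted p under 0.05 in the 3 comparisons, so that the 18 and 20 genes lie above the share of all genes and the 9 below it, differences that were not tested. They were Git1, an Arf GTPase-activating scaffold, and Ppp1cc, the gamma catalytic subunit of protein phosphatase 1, which spinophilin anchors in spines. Git1 was at 91.9, 88.8 and 102 FPKM in B6, 126, 101 and 157 in C3H and 79.3, 73.5 and 75.7 in WSB. Every C3H mouse was above every WSB mouse, C3H replicate 2 lay just below the highest B6 mouse, and the fold change between WSB and C3H was -0.725 (SE 0.15, adjusted p = 0.0372). Ppp1cc was at 36.0, 32.9 and 37.0 FPKM in B6, 38.7, 37.6 and 39.8 in C3H and 27.3, 31.0 and 30.4 in WSB, with a fold change of -0.39 (SE 0.07, adjusted p = 0.0277). The WSB mice were below all others. Git1 and Ppp1cc each passed in 10 of the 18 other fits. Among the 6 fits that leave out 1 mouse, the call held in 1 for Git1 and in 1 for Ppp1cc.

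The values of the members followed the base composition of their transcripts, in a way that differed from library to library. GC content of the longest transcript ran from 36.9% in Homer1 to 63.9% in Dlgap3, with a median of 52.7%, where the median of 12995 genes averaging 1 FPKM or more was 50.0%. The first 90 bases of the longest coding exon of Homer1, at chr13:93355940-93356029 on the plus strand, and of Ddn, at chr15:98807111-98807200 on the minus strand (GRCm38), show the contrast within coding sequence, with G and C in capitals.
Homer1: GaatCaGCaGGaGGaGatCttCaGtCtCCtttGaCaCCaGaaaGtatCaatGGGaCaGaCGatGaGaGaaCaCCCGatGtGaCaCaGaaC
Ddn: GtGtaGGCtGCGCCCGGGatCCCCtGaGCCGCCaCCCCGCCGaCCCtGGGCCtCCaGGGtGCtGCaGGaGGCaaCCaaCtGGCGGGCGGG
These stretches are 47.8% and 75.6% G or C. Homer1 had the lowest fold change between C3H and B6 of any member and Ddn the highest. Homer1 is also the member lowest in GC, but Ddn, at 59.9% over its longest transcript, is not the highest. Dlgap3, which is, had a fold change of 0.05 between C3H and B6.

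For each mouse, the log2 level of a member minus its mean over the 9 mice was set against GC content over the 34 members. Spearman's rank correlation was 0.71 and 0.76 in C3H replicates 1 and 3 but -0.51 in C3H replicate 2. It was -0.55, -0.34 and -0.16 in B6 replicates 1 to 3, and -0.74, 0.04 and -0.19 in WSB. Over the 12995 genes the rank correlation had the same sign in each of these libraries and was mostly smaller, at 0.51, -0.18 and 0.53 in C3H. It ran from -0.47 to -0.06 in B6 and from -0.37 to 0.06 in WSB, so that C3H replicate 2 lay among those libraries. The points of one mouse share a library, its depth and its scaling, so these values are descriptions.

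The fold changes of both comparisons with C3H followed GC content as well. The rank correlation between the fold change and GC content over the 34 members was 0.62 for C3H against B6 (0.49 over 12940 genes), -0.67 for WSB against C3H (-0.40 over 12998 genes) and 0.03 for WSB against B6 (0.11 over 13036 genes). Between C3H and B6, the 10 members lowest in GC, among them Homer1, Nlgn1 and Calm2, were below 0 in 10 of 10 cases with a median of -0.16, and the 10 highest, among them Ddn, Shank1 and Dlgap3, were above 0 in 10 of 10 with a median of 0.07. When the trend of each library with GC was removed over all genes, the rank correlation became -0.22, -0.03 and -0.30 over the members for C3H against B6, WSB against C3H and WSB against B6, the 10 lowest were below 0 in 6 cases and the 10 highest above 0 in 1. Members below 0 between C3H and B6 then numbered 23 instead of 16, and between WSB and C3H 20 instead of 25, while between WSB and B6 they stayed at 26. No member was called in any comparison after this removal (limma, 0 of 34 each, where 5.76%, 6.96% and 6.89% of all genes were called, with 8, 4 and 7 at an unadjusted p under 0.05 for C3H against B6, WSB against C3H and WSB against B6). Of the members near the threshold, Lrrc7 kept a fold change of -0.44 between C3H and B6, Dlgap1 one of -0.38 and Camk2g one of 0.195, while Ddn went from 0.41 to 0.23 and Synpo from 0.19 to 0.03. Other members named above for their difference from B6 moved as well, Dlg2 from -0.34 to -0.20, Cnksr2 from -0.27 to -0.12 and Camk2b from 0.25 to 0.12, and between WSB and C3H Calm3 moved from -0.25 to -0.13 and Iqsec2 from -0.25 to -0.125.

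**Figure D4:**
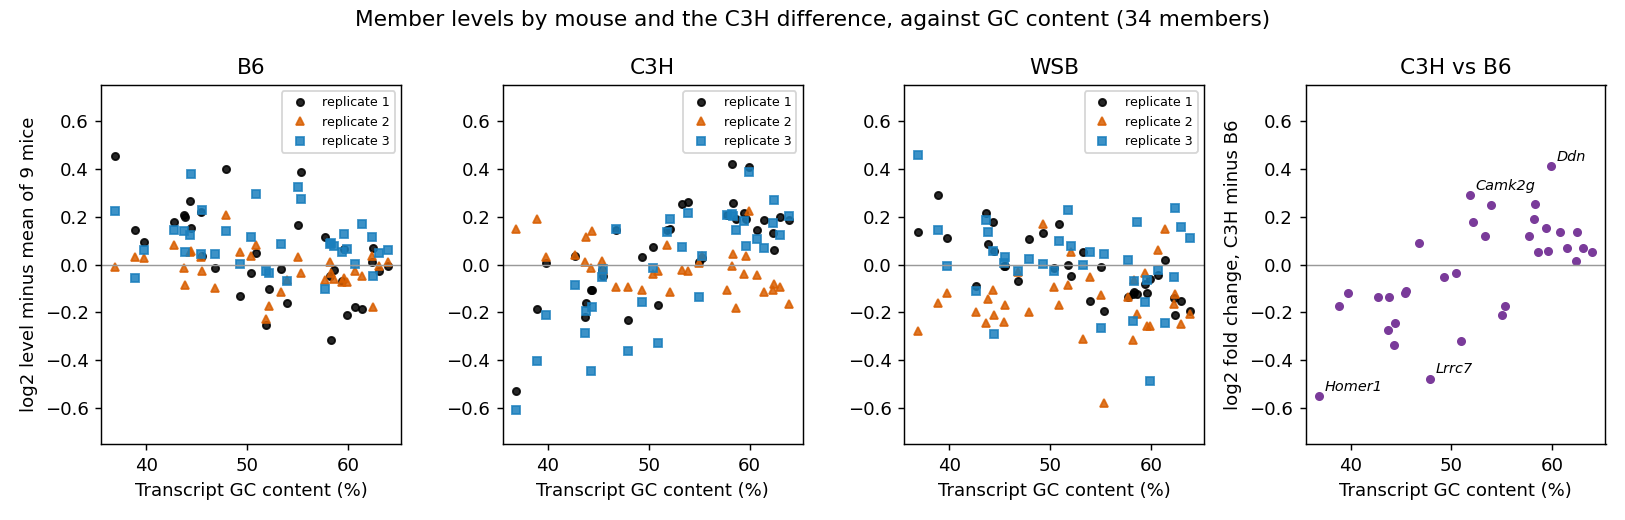
Left 3 panels show the log2 level of each of the 34 members minus its mean over 9 mice (y axis) against transcript GC content in percent (x axis), by strain, with a colour and shape per replicate. The right panel shows the log2 fold change of C3H against B6 against GC content. Points of C3H replicates 1 and 3 rise with GC content (rank correlation 0.71 and 0.76), those of C3H replicate 2 fall (-0.51), and in the right panel the rank correlation is 0.62.

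C3H replicates 1 and 3 were the libraries whose values rose most with GC content. The number of members called depended most on C3H replicate 2, without which only those stand for C3H. With it left out, 4 members were called between C3H and B6, namely Ddn (0.47, adjusted p = 0.0427) and Camk2b (0.34, adjusted p = 0.0368) higher in C3H and Homer1 (-0.79, adjusted p = 0.0245) and Lrrc7 (-0.54, adjusted p = 0.0404) lower, and the rank correlation with GC content was 0.64. Over all genes, 2301 (11.2%) were then called in place of 956, and the 4 of 34 members are close to that share. Between WSB and C3H, 3 members were called without it, Ddn, Synpo and Dlgap4, each lower in WSB, where 2002 of all genes (9.71%) were called in place of 1182, again a share close to that of the members, and the rank correlation was -0.78. Leaving out any other mouse gave 0 members between C3H and B6 and 0 or 1 between WSB and C3H. Between WSB and B6, 0 members were called whichever mouse was left out.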

How the data were processed

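Paired-end reads came from cortex mRNA of 9 males, 3 per strain. Before deposit, the authors trimmed them with Cutadapt, counted them per gene with HTSeq and tested the counts with DESeq2, and what they deposited are FPKM values. STAR is also named in the submitters' processing notes, no versions are given, and the genome build and the strand setting of the counting are not given in the sources used here. Coordinates of 53499 of 54532 gene identifiers, all 34 members included, equal those of GENCODE M21 (GRCm38).

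Each FPKM value times gene length was a whole multiple of 1 step per library (100% of values within 0.01 read), which returned the reads behind it. Counts were used for depth and for voom weights only. Strains were compared 2 at a time with limma 3.58.1 in R 4.3.3 (two-sided; lmFit, then eBayes with a trend) on log2(FPKM + 0.1). Genes entered when they averaged 0.1 FPKM or more in the 6 mice, with Benjamini-Hochberg adjustment over all genes tested and a threshold of 0.05. Fold changes on this scale understate those of low genes. The scripts were tested on simulated data.

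The members, the 62 other genes of the pathway and the marker lists were chosen with earlier results of these data known. Full statistics are given for members called in a comparison, for the highest member of each of 10 role groups and for the 6 members with the smallest adjusted p; others are named with values where an unadjusted p was under 0.05, or for their levels alone, and of the pathway list only called genes. GC content came from the longest transcript (34 of 34 members), and its trend was removed per library by a natural spline with 5 degrees of freedom, fitted on genes of at least 1 FPKM. Similar transcripts were searched with blastn 2.17.0. Pairs of libraries within a strain gave a chi-square per gene of 7.29 to 22.04, so no 2 libraries were alike within sampling noise. Replicate numbers come from the sample titles. The p-values set a strain difference against the spread between the libraries of a strain. Each mouse gave a single library, so differences between mice and between the preparations of their libraries are not separated in that spread. Same-numbered mice did not deviate together, so no pairing was used.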

Additional observations from a re-analysis of the deposited data

How the results depend on the processing

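Each comparison was refitted under 18 alternatives, 6 of which leave out 1 mouse. Another, median-ratio rescaling, repeats a scaling that the values already carried, so it could hardly change a result. Members called between WSB and B6 became 1 (Calm2) with voom weights and were 0 in the other fits. Between C3H and B6 they became 1 with all 9 mice in one fit, 2 with voom weights and 0 to 4 without one mouse, the 4 being without C3H replicate 2. Between WSB and C3H they became 0 with no filter on low values, with the GC trend removed, with the GC trend removed and a replicate block, with eBayes without a trend and with a replicate block, 2 with all 9 mice in one fit and with voom weights, and 0 to 3 without one mouse, the 3 being without C3H replicate 2. The median fold change of members between C3H and B6 went from 0.033 to -0.059 with the GC trend removed, with or without the block, and ran from -0.018 to 0.094 without one mouse. Between WSB and C3H it went from -0.097 to -0.032 with the GC trend removed and ran from -0.134 to -0.065 without one mouse, and between WSB and B6 from -0.117 to -0.027, the last being without WSB replicate 2. The cause of these changes was not tested.

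Genes called over all genes were 1224, 956 and 1182 for WSB against B6, C3H against B6 and WSB against C3H, from 651 to 825, from 498 to 2301 and from 475 to 2002 without one mouse, and from 754 to 1541, from 480 to 1488 and from 531 to 1757 in the other fits. Replicate numbers did not pair the mice, since the deviations of same-numbered mice from their strain means correlated at -0.156 to 0.037 and only 1 of 9 mouse pairs correlated best with its own number. The replicate block called 0 members in each comparison and 754, 480 and 531 genes.

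Signs that changed belonged to uncalled fold changes. With the GC trend removed, the sign changed for 4 of 34 members between WSB and B6, 15 between C3H and B6 and 11 between WSB and C3H, and ranges without one mouse crossed 0 for 11, 5 and 5 members. The values that follow are those of members given with full statistics. With the GC trend removed, with or without the block, fold changes between WSB and B6 were 0.013 for Dlg4 and 0.014 for Homer1. Between C3H and B6 they were -0.180 for Dlgap3, -0.132 for Shank1, -0.005 for Camk2a, -0.117 for Nrgn, -0.056 for Nlgn2, -0.124 for Iqsec2 and -0.151 for Agap2. Between WSB and C3H they were 0.057 for Shank1, 0.004 for Camk2g, 0.018 for Nrgn and 0.058 for Nlgn2. Without one mouse, their ranges that crossed 0 were, between WSB and B6, -0.139 to 0.043 for Camk2a, -0.056 to 0.016 for Dlg4, -0.290 to 0.076 for Homer1, -0.163 to 0.029 for Nrgn and -0.092 to 0.105 for Shank1, between C3H and B6 -0.010 to 0.174 for Dlgap3, -0.017 to 0.168 for Nrgn and -0.013 to 0.164 for Shank1, and between WSB and C3H -0.103 to 0.020 for Ppp3ca and -0.161 to 0.037 for Shank1. No gene-level result was near the limit of depth, since every member had at least 514 reads in each mouse.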
